A study of Mus musculus with 24 samples.

Results

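The liver of the mouse was profiled here for its circadian clock genes, the genes that keep daily time in most cells of the body. They were Arntl (also called Bmal1), Clock, Per1, Per2, Per3, Cry1, Cry2, Nr1d1, Nr1d2 and Dbp, 10 of the 18193 genes named on the array. A probe set, the group of short probes that together report on 1 transcript, was taken where the platform annotation gives exactly 1 gene symbol and that symbol is among the 10. This gave 23 of the 45101 probe sets: 6 for Per3, 4 for Clock, 3 for Per2, 2 each for Arntl, Dbp and Nr1d2, and 1 each for Per1, Cry1, Cry2 and Nr1d1. The rule reads symbols and no measured value.

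The study compared 3 diets in male C57BL6J mice, an inbred laboratory strain, with 6 mice per diet and 1 Affymetrix 3' array per liver. The HF+P mice ate high-fat food with 45% fat to which 5% powdered propagules of Japanese yam had been added, the HF mice ate the high-fat food alone, and the LF mice ate low-fat food, whose fat content no source used here gives. All animals had first been kept on low-fat food, ate their diet freely for 4 weeks and went without food for 16 h before dissection. The HF arrays were processed once with the LF arrays and a further time with the HF+P arrays, so HF was set against LF in the first set of values and HF+P against HF in the second, and HF+P was not set against LF. No source used here gives the clock time of dissection, which sets where in the daily cycle a liver is caught.

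The clock is a feedback loop of transcription. The proteins of Arntl and Clock pair up, bind E-boxes in DNA and switch on the Per, Cry and Nr1d genes and Dbp; the Per and Cry proteins then enter the nucleus and block that pair, and the Nr1d proteins (REV-ERB alpha and beta) repress Arntl through elements called ROREs. Dbp encodes an activator that binds D-boxes, and its transcript is among those with the widest daily swing in liver, in near antiphase to Arntl. Feeding, fasting and glucocorticoids are known to shift the liver clock.

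These elements can be read directly in some of the promoters. RefSeq windows of GRCm38.p6, from 250 bases before to 50 bases after a transcript's start, were at hand for 9 of the 10 genes (13 windows; Per2 had none). They were searched on both strands for the E-box CACGTG, the D-box TTATGTAA, the RORE (AA, any base, then TAGGTCA) and a RORE variant (AA, any base, then TAGGTTA). The 4 windows shown carry each kind of element, with matches in capitals: 2 D-boxes in Per3, 205 and 158 bases before the start (chr4:151044616-151044915, minus strand), a RORE variant 9 bases before and a RORE 27 bases after the start of Arntl (chr7:113207261-113207560, plus strand), an E-box 60 bases before the start of Cry1 (chr10:85185005-85185304, minus strand) and an E-box 166 bases before the start of Per1 (chr11:69098699-69098998, plus strand).
Per3: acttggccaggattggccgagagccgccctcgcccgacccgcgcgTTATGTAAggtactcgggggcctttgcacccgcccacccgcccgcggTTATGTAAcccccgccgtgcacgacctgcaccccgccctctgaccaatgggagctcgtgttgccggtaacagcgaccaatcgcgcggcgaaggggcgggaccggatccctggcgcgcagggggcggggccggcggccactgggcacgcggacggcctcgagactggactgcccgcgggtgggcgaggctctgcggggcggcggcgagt
Arntl: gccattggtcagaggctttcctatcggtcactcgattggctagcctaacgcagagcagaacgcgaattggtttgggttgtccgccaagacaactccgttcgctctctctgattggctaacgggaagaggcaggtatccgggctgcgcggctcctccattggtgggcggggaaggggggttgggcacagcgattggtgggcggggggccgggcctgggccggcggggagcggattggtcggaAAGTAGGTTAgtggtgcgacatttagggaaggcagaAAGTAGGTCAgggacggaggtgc
Cry1: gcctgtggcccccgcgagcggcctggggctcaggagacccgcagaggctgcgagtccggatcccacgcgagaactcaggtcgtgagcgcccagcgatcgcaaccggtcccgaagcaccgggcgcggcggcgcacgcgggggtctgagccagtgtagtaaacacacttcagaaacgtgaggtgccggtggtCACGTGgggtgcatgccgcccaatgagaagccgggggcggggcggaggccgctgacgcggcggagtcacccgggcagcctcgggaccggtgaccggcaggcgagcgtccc
Per1: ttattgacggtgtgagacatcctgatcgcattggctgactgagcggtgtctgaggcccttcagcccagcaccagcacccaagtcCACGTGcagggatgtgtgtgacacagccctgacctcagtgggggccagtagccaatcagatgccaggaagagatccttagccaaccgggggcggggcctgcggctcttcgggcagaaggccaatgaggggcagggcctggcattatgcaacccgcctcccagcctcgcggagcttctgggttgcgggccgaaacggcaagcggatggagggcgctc
The matches within a window did not overlap one another. Among all 32851 RefSeq windows of this length, 7.15% held the E-box, 0.938% the D-box, 0.219% the RORE and 0.149% its variant. A second Arntl window, which overlaps the one shown, held the variant too, and 8 of the 13 windows held none of the 4 sequences. A match is a string of letters, not a measured binding site, and a window without one says nothing of a factor elsewhere.

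The deposited values, handled as log2, ran from 5.36 to 15 and hardly varied between arrays: the SD of a probe set over the 12 arrays had a median of 4.17e-06 in the set of HF and LF and 4.26e-06 in the set of HF+P and HF. A difference in them is not a fold change. Sizes are standardized differences: how far apart the means of 2 diets lay, counted in pooled SDs of the mice within a diet, with the Hedges correction for small samples and a 95% interval. Whole-liver RNA was measured, so fewer cells of a type and less RNA per cell cannot be told apart. Precision is limited by having 6 arrays per diet. Column medians differed by 6.45e-05 between HF and LF, which is more than most probe sets moved but less than 19 of the 23 clock probe sets did.

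In livers of HF mice the clock genes lay on both sides of their level in LF livers. All 4 Clock probe sets and the better-varying Arntl probe set lay lower than in LF livers, with standardized differences of -1.62 to -1.97, and all probe sets of Per2, Per3, Dbp and Nr1d2 lay higher, with 0.295 to 1.78, although under another scaling of the arrays some of the Per2 and Per3 probe sets lay lower. No clock probe set passed the test: 0 of 23 had an adjusted p below 0.05 (limma, Benjamini-Hochberg over 45037 probe sets), where 0.671% of all probe sets did. That background was 302 probe sets, 121 higher and 181 lower in HF, and with the columns centred on their medians it was 322 higher and 42047 lower, since centring alone takes the probe sets that lay higher in HF to 1291 of 45037 from 22898 without it. At an unadjusted p under 0.05 limma had 12 of the 23 clock probe sets (52.2%), 7 higher and 5 lower in HF. Of all probe sets 12.9% had such a p (5.69% higher and 7.25% lower). Probe sets of 1 gene share their mice and are not separate evidence. The exact two-sided permutation test had 13, but it was run on the clock probe sets only, so it has no share over all probe sets beside it. With the columns centred, 11 clock probe sets passed: all 4 for Clock, both for Arntl, Cry1 and Per3 1421086_at fell, and Per2 1417602_at, Per3 1421087_at and Dbp 1418174_at rose. With quantile normalisation 4 passed, 3 for Clock lower and Per3 1421087_at higher, among 6559 lower and 175 higher probe sets in all. None of the 23 kept the HF and LF mice fully apart, against 1.57% of all probe sets. The median standardized difference was 0.55 over the clock probe sets and 0.0149 over all of them.

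Clock encodes one partner of the activating pair. Its probe set 1435775_at had lowest, median and highest values of 7.5336, 7.5340 and 7.5344 in HF livers, against 7.5342, 7.5346 and 7.5347 in LF livers. The groups overlapped, with 4 of the 6 HF mice below every LF mouse and all 6 below the LF mean. Its standardized difference of -1.97 (95% interval -3.29 to -0.60; adjusted p = 0.118, exact permutation p = 0.00649) had the smallest adjusted p among the 23. The other Clock probe sets lay at -1.82 (1418660_at), -1.73 (1439314_at) and -1.68 (1418659_at), with adjusted p-values of 0.149 to 0.180, and for each of these 4 all 6 HF mice were below the LF mean.

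Arntl encodes the other partner. Probe set 1425099_a_at had lowest, median and highest values of 7.0077, 7.0079 and 7.0092 in HF livers, against 7.0087, 7.0104 and 7.0127 in LF livers. Its 4 lowest mice were all HF mice, while HF mice 1 and 5 lay inside the LF range. The standardized difference was -1.62 (95% interval -2.85 to -0.34; adjusted p = 0.195, exact permutation p = 0.0130). The second Arntl probe set, 1457740_at, hardly varied at all: its SD over the 12 arrays was at the 2.61 percentile of all probe sets, and its difference of -0.10 (adjusted p = 0.977) changed sign with array weights.

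Per1, Per2 and Per3 encode the period proteins of the repressing complex, and they did not lie on 1 side. Per2 1417602_at had lowest, median and highest values of 7.0506, 7.0516 and 7.0526 in HF livers, against 7.0492, 7.0504 and 7.0509 in LF livers. It was above every LF mouse in 4 of the 6 HF mice, by a clear margin in HF mice 2, 4 and 8. Its standardized difference was 1.64 (95% interval 0.35 to 2.87; adjusted p = 0.191, exact permutation p = 0.0130). The other Per2 probe sets lay at 0.93 (1417603_at) and 0.77 (1457350_at), adjusted p = 0.493 and 0.588, and both turned to lower in HF (-0.84 and -0.95) when columns were centred on their medians.

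Per3 1421087_at had lowest, median and highest values of 7.164, 7.165 and 7.168 in HF livers, against 7.157, 7.162 and 7.165 in LF livers. Mouse 1 of the LF group was the lowest of all 12, and 3 HF mice were above every LF mouse. The standardized difference, 1.78 (95% interval 0.46 to 3.05; adjusted p = 0.158, exact permutation p = 0.00866), was the highest among the 23. All 6 Per3 probe sets were higher on average in HF, from 0.30 (1442243_at) to that value, 3 of them with an unadjusted p under 0.05. Probe set 1421086_at, at 1.38 (adjusted p = 0.277), turned to -1.46 with centred columns, 1460662_at, at 1.45 (adjusted p = 0.251), turned to -0.48 with quantile normalisation, and 1441445_at and 1442243_at turned to -0.05 and -0.11 without LF mouse 1.

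Per1 1449851_at had lowest, median and highest values of 7.2795, 7.2802 and 7.2806 in HF livers, against 7.2801, 7.2804 and 7.2812 in LF livers. It lay on the other side from Per2 and Per3, with 3 HF mice below every LF mouse and a standardized difference of -0.83 (95% interval -1.91 to 0.29; adjusted p = 0.553, exact permutation p = 0.154).

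The cryptochromes, the partners of the period proteins, had smaller differences. Cry1 1433733_a_at had lowest, median and highest values of 7.08273, 7.08299 and 7.08314 in HF livers, against 7.08285, 7.08314 and 7.08337 in LF livers, and its standardized difference was -0.72 (95% interval -1.80 to 0.38; adjusted p = 0.618, exact permutation p = 0.203). Cry2 1426383_at had lowest, median and highest values of 7.77958, 7.77966 and 7.77980 in HF livers, against 7.77923, 7.77957 and 7.77986 in LF livers. Here the LF mice enclosed the HF mice on both sides, and the standardized difference was 0.55 (95% interval -0.53 to 1.61; adjusted p = 0.721, exact permutation p = 0.357). Without LF mouse 1 it was 0.21.

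Nr1d1 and Nr1d2 encode the nuclear receptors that repress Arntl. Nr1d1 1426464_at had lowest, median and highest values of 7.66416, 7.66427 and 7.66443 in HF livers, against 7.66395, 7.66452 and 7.66457 in LF livers. Apart from LF mouse 1, the lowest of all 12, every LF mouse was above every HF mouse. With that mouse the standardized difference was -0.73 (95% interval -1.81 to 0.38; adjusted p = 0.612, exact permutation p = 0.206), and without it -2.86 (adjusted p = 0.064). Nr1d2 1416958_at had lowest, median and highest values of 10.4016, 10.4018 and 10.4022 in HF livers, against 10.4000, 10.4015 and 10.4017 in LF livers, and LF mouse 1 was again far below the rest. Its standardized difference was 1.14 (95% interval -0.04 to 2.27; adjusted p = 0.384, exact permutation p = 0.0108), and that of 1416959_at was 1.29 (adjusted p = 0.313).

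Dbp, the output activator, had by far the widest spread of the 23. Probe set 1418174_at had lowest, median and highest values of 7.91, 7.95 and 7.99 in HF livers, against 7.70, 7.88 and 7.93 in LF livers. In 4 of the 6 HF mice it was above every LF value, and LF mouse 1 was far below all others. The standardized difference was 1.17 (95% interval -0.01 to 2.31; adjusted p = 0.368, exact permutation p = 0.0260), or 1.38 without LF mouse 1. The second probe set, 1438211_s_at, whose probes can also match other transcripts, followed it closely (r = 0.994 between the 2 over the 12 mice after removing group means) and lay at 1.02 (adjusted p = 0.449).

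**Figure D1:**
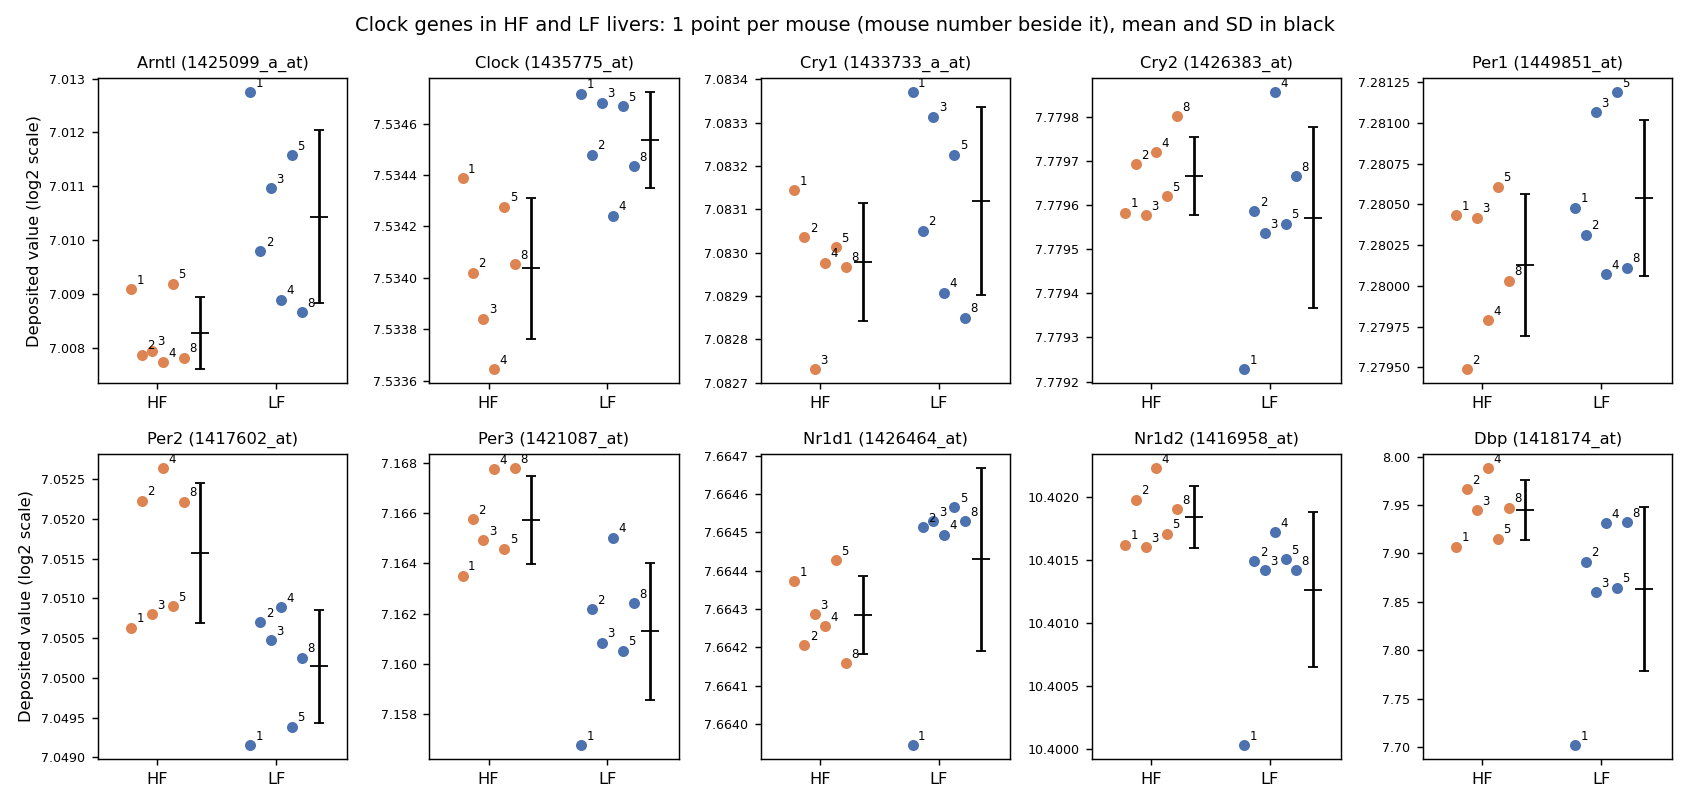
Deposited values (log2 scale, vertical axis, a separate range in each panel) of 1 probe set per clock gene in the 6 HF mice (left) and the 6 LF mice (right), each point 1 mouse with its number, and mean and SD in black; of several probe sets of a gene, the one with the smallest permutation p is drawn. HF mice sit low for Arntl and Clock and high for Per2 and Per3, the groups overlap in every panel, and LF mouse 1 stands far below the others for Nr1d1, Nr1d2 and Dbp.

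With yam propagules in the high-fat food, Clock lay higher in HF+P than in HF livers, with standardized differences of 0.97 to 1.82 over its 4 probe sets, and Per2, Dbp, Nr1d2 and Per3 lay at -0.28 to -1.09, with the exception that 1 Per3 probe set turned positive under quantile normalisation. None passed the test: 0 of 23 had an adjusted p below 0.05, where 0.00222% of all probe sets, that is 1, did. At an unadjusted p under 0.05 limma had 2 of the 23 (8.70%), both for Clock and higher in HF+P, close to the 6.94% of all probe sets (3.74% higher). The exact permutation test, run on the clock probe sets only, also had 2. None of the 23 separated the groups, against 0.355% of all probe sets. The median standardized difference was -0.40 over the clock probe sets and -0.0095 over all. The HF mice of this comparison are the same animals as in the comparison with LF, so the 2 sets of differences are not independent of each other.

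Of the activating pair, Clock 1435775_at had lowest, median and highest values of 7.58145, 7.58158 and 7.58171 in HF+P livers, against 7.58099, 7.58129 and 7.58148 in HF livers. The groups overlapped, with 4 of the 6 HF+P mice above every HF mouse and all 6 above the HF mean. The standardized difference was 1.82 (95% interval 0.49 to 3.10; adjusted p = 0.539, exact permutation p = 0.00866), again the smallest adjusted p among the 23. Clock 1418660_at lay at 1.36 (95% interval 0.14 to 2.54; adjusted p = 0.659, exact permutation p = 0.0281), and the other Clock probe sets lay at 1.08 and 0.97. Arntl 1425099_a_at had lowest, median and highest values of 6.9532, 6.9545 and 6.9580 in HF+P livers, against 6.9528, 6.9533 and 6.9547 in HF livers, with HF+P mouse 2 far above the rest. Its standardized difference was 0.94 (95% interval -0.20 to 2.04; adjusted p = 0.769, exact permutation p = 0.0952), and 1457740_at lay at -0.40 (adjusted p = 0.911) but at 0.17 with centred columns.

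Among the repressors, Per2 1417602_at had lowest, median and highest values of 6.9996, 7.0018 and 7.0029 in HF+P livers, against 7.0018, 7.0030 and 7.0046 in HF livers. All 6 HF+P mice were below the HF mean, 3 of them below every HF mouse, and the standardized difference was -1.09 (95% interval -2.21 to 0.08; adjusted p = 0.728, exact permutation p = 0.0671). The other Per2 probe sets lay at -0.69 and -0.78. Per3 1421087_at had lowest, median and highest values of 7.5587, 7.5602 and 7.5607 in HF+P livers, against 7.5599, 7.5606 and 7.5614 in HF livers, and its standardized difference was -0.90 (95% interval -1.998 to 0.23; adjusted p = 0.775, exact permutation p = 0.123). The other 5 Per3 probe sets lay between -0.28 (1442243_at, which turned to 0.04 without HF+P mouse 2) and -0.86 (1421086_at, which turned to 0.34 with quantile normalisation).

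Per1 1449851_at had lowest, median and highest values of 7.22783, 7.22817 and 7.22852 in HF+P livers, against 7.22767, 7.22810 and 7.22834 in HF livers, a standardized difference of 0.55 (adjusted p = 0.868). Cry1 1433733_a_at had lowest, median and highest values of 7.1642, 7.1646 and 7.1655 in HF+P livers, against 7.1637, 7.1644 and 7.1647 in HF livers, a standardized difference of 0.81 (adjusted p = 0.800). Cry2 1426383_at had lowest, median and highest values of 8.247756, 8.247799 and 8.247850 in HF+P livers, against 8.247787, 8.247811 and 8.247845 in HF livers, a standardized difference of -0.40 (adjusted p = 0.909) that turned to 0.07 with quantile normalisation. In all 3 of these genes the groups overlapped, and for Cry1 the highest mouse was HF+P mouse 2 and the lowest HF mouse 3.

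For the nuclear receptors the order of the groups was mixed. Nr1d1 1426464_at had lowest, median and highest values of 7.891436, 7.891482 and 7.891489 in HF+P livers, against 7.891433, 7.891452 and 7.891485 in HF livers, a standardized difference of 0.42 (adjusted p = 0.901). Nr1d2 1416958_at had lowest, median and highest values of 10.75934, 10.75946 and 10.75951 in HF+P livers, against 10.75944, 10.75948 and 10.75955 in HF livers, a standardized difference of -0.61 (adjusted p = 0.853), and 1416959_at lay at -0.94 (adjusted p = 0.770). For Nr1d1 both groups ran over nearly the same range, and HF+P mouse 2 was the lowest of all 12 for both Nr1d2 probe sets. Dbp 1418174_at had lowest, median and highest values of 8.40, 8.48 and 8.50 in HF+P livers, against 8.47, 8.49 and 8.52 in HF livers. Here too HF+P mouse 2 was far below every other mouse, and the standardized difference was -0.92 (95% interval -2.01 to 0.22; adjusted p = 0.774, exact permutation p = 0.0801), with -0.87 for 1438211_s_at.

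**Figure D2:**
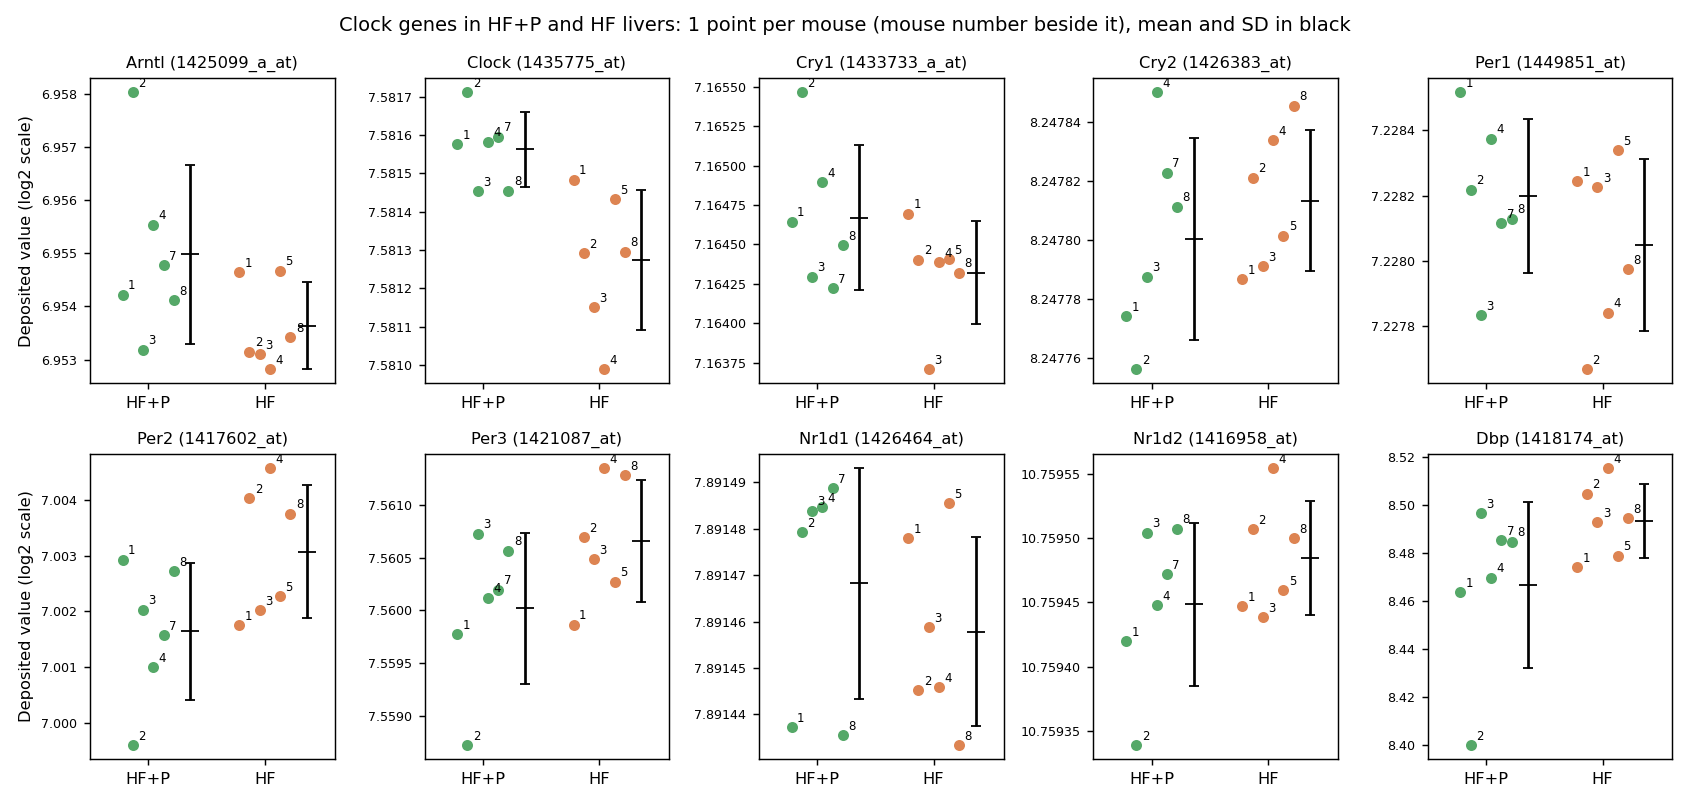
Deposited values (log2 scale, vertical axis, a separate range in each panel) of 1 probe set per clock gene in the 6 HF+P mice (left) and the 6 HF mice (right), each point 1 mouse with its number, and mean and SD in black, for the same probe sets as in the plot of HF and LF. The groups overlap in every panel, Clock comes closest to separating them, and HF+P mouse 2 is the lowest mouse for Dbp, Nr1d2, Per2, Per3 and Cry2 and the highest for Arntl, Clock and Cry1.

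**Figure D3:**
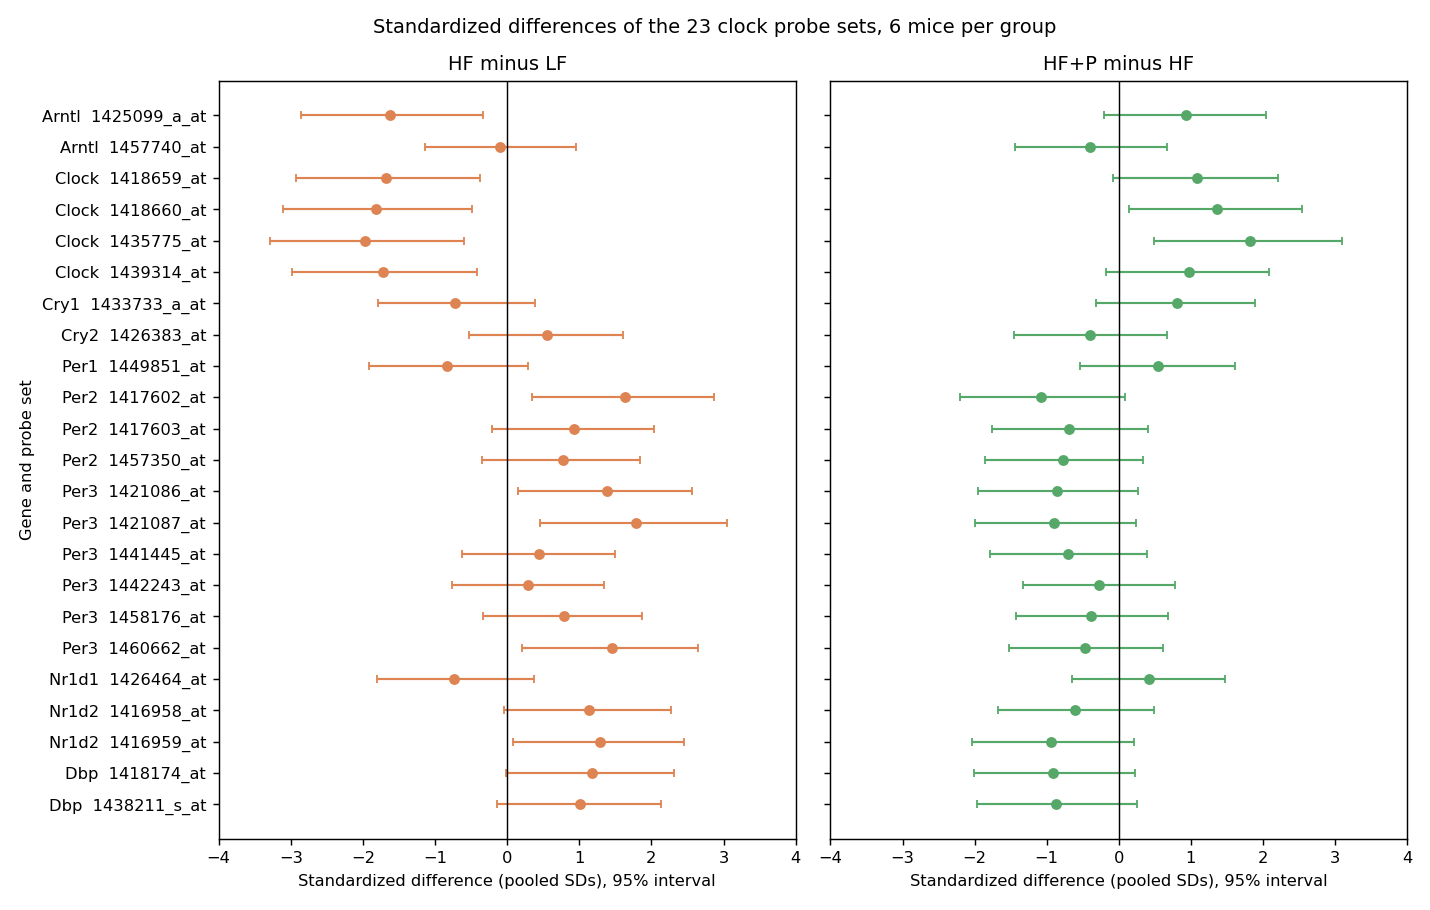
Standardized difference (horizontal axis, in pooled SDs, with its 95% interval as a bar) of each of the 23 clock probe sets, HF minus LF on the left and HF+P minus HF on the right, 6 mice per group. On the left all 4 Clock intervals and 1 Arntl interval lie below 0 and some of the Per2, Per3 and Nr1d2 intervals above it; on the right 2 Clock intervals lie above 0 and every other interval includes it.

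Mice of the same diet differed from one another in these genes, and single animals were extreme for many of them at once. LF mouse 1 was the lowest of its group in 12 of the 23 probe sets and the highest in 4, and LF mouse 4 was the highest in 13 and the lowest in 5. HF+P mouse 2 was the lowest of its group in 14 and the highest in 6. HF mouse 1 was the lowest in 11 of the 23 in the values processed with LF and in 12 in those processed with HF+P. In LF mouse 1 and HF+P mouse 2 it was Arntl, Clock and Cry1 that were high and Dbp, Nr1d2, Per3 and Cry2 that were low, except Arntl 1457740_at and Per3 1421086_at in LF mouse 1; in LF mouse 4 the same genes lay on the other side of their group means.

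**Figure D4:**
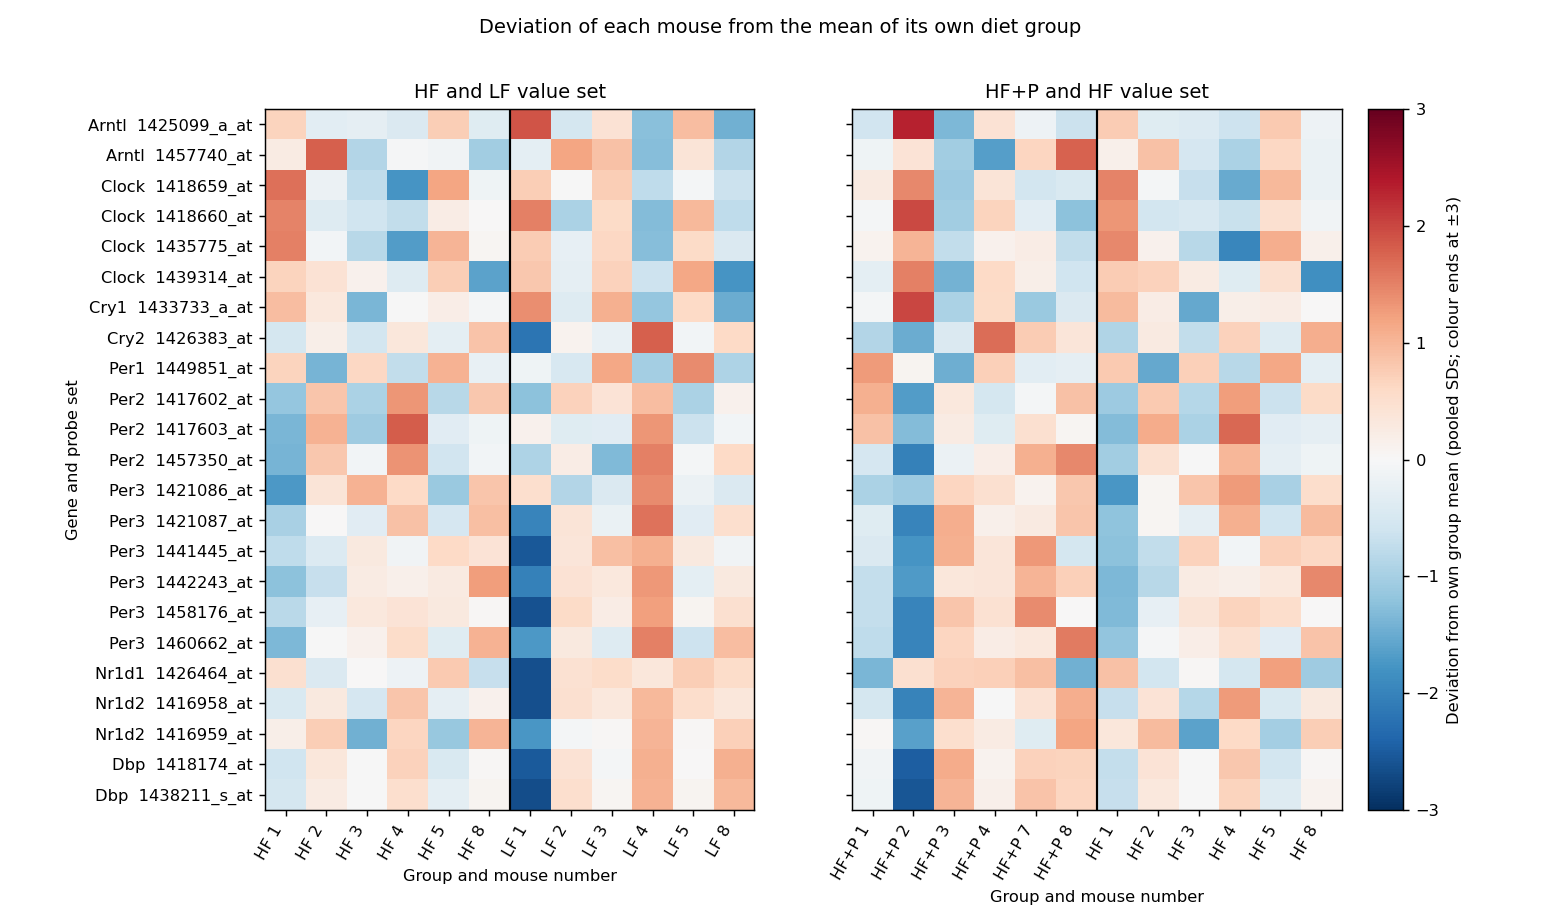
Deviation of each mouse (columns) from the mean of its own group for each clock probe set (rows), in pooled SDs, red above and blue below the mean, HF and LF values on the left and HF+P and HF values on the right. LF mouse 1 and HF+P mouse 2 appear as blue columns for most Per3 probe sets, Nr1d2 and Dbp with red for Arntl 1425099_a_at, Clock and Cry1.

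How the 10 genes moved together was measured on values with the group means removed, so that diet does not enter, with 1 probe set per gene (the one with the highest mean) over 12 mice and with all 45 pairs. In the set of HF and LF, 17 of the 45 pairs had an adjusted permutation p for Pearson's r below 0.05, 9 positive and 8 negative. In the set of HF+P and HF this held for 16, 8 positive and 8 negative. By Spearman's rho the count was 10 in either set. Only pairs of clock genes were tested, so these counts have no share over pairs of all genes beside them. Leaving out the 2 mice farthest from the median of the first gene of a pair gave 16 called pairs in the set of HF and LF, of which 8 were among the 17 and 8 were not. In the set of HF+P and HF it gave 0 (13 at an unadjusted p under 0.05, smallest adjusted p = 0.0534), while all 16 pairs kept their sign and 14 of them an absolute r over 0.5 over the 10 mice. The 2 sets share the HF mice.

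Arntl and Dbp, at opposite ends of the loop, had the most negative r of all 45 pairs in both sets. Between them r was -0.88 (rho -0.90; adjusted permutation p = 0.00180 and 0.00270) in the set of HF and LF, and -0.93 without LF mice 1 and 5. In the set of HF+P and HF it was -0.91 (rho -0.70; adjusted permutation p = 0.0120 and 0.0662), and -0.66 without HF+P mice 2 and 3. Within the 6 HF mice alone it was -0.88 and within the 6 LF mice -0.88. Arntl against Per3 had r = -0.87 in the set of HF and LF and -0.85 in the set of HF+P and HF.

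Dbp, Nr1d2 and Per3 moved as a block. Dbp and Nr1d2 had r = 0.95 (rho 0.83; adjusted permutation p = 0.00698 and 0.0107) in the set of HF and LF and 0.90 (rho 0.89; adjusted permutation p = 0.00180 and 0.00833) in the set of HF+P and HF, and 0.61 and 0.84 without the 2 farthest mice. Dbp and Per3 had r = 0.88 and 0.89 in these sets, and Nr1d2 and Per3 0.86 and 0.93. Cry2 and Per3 had the strongest relation of all in the set of HF and LF, r = 0.96 (rho 0.96; adjusted permutation p = 0.00135 and 0.00180; 0.89 without LF mice 1 and 4). In the set of HF+P and HF it was 0.69 (rho 0.66), which missed the threshold (adjusted permutation p = 0.0550 and 0.0744).

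The genes at the other end also went together. Arntl and Cry1 had r = 0.85 (rho 0.80; adjusted permutation p = 0.0162 and 0.0592) in the set of HF and LF and 0.79 (rho 0.69; adjusted permutation p = 0.0225 and 0.0662) in the set of HF+P and HF. Arntl and Clock had r = 0.66 and 0.84 in the 2 sets. Per2 and Dbp had r = 0.27 (adjusted permutation p = 0.319) in the set of HF and LF and 0.64 (adjusted permutation p = 0.0225) in the set of HF+P and HF. Without LF mice 1 and 4 the first of these was 0.72 (adjusted permutation p = 0.0283), and within the 6 HF mice alone it was 0.88. Per2 was read here from 1417603_at, whose SD over the 12 HF and LF arrays was 2.86e-05. That of Per2 1417602_at, which was not used here, was 0.00107. Nr1d1 had no called pair in either set over all 12 mice, and its r of 0.75 with Dbp in the set of HF and LF turned to -0.57 without LF mice 1 and 4.

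**Figure D5:**
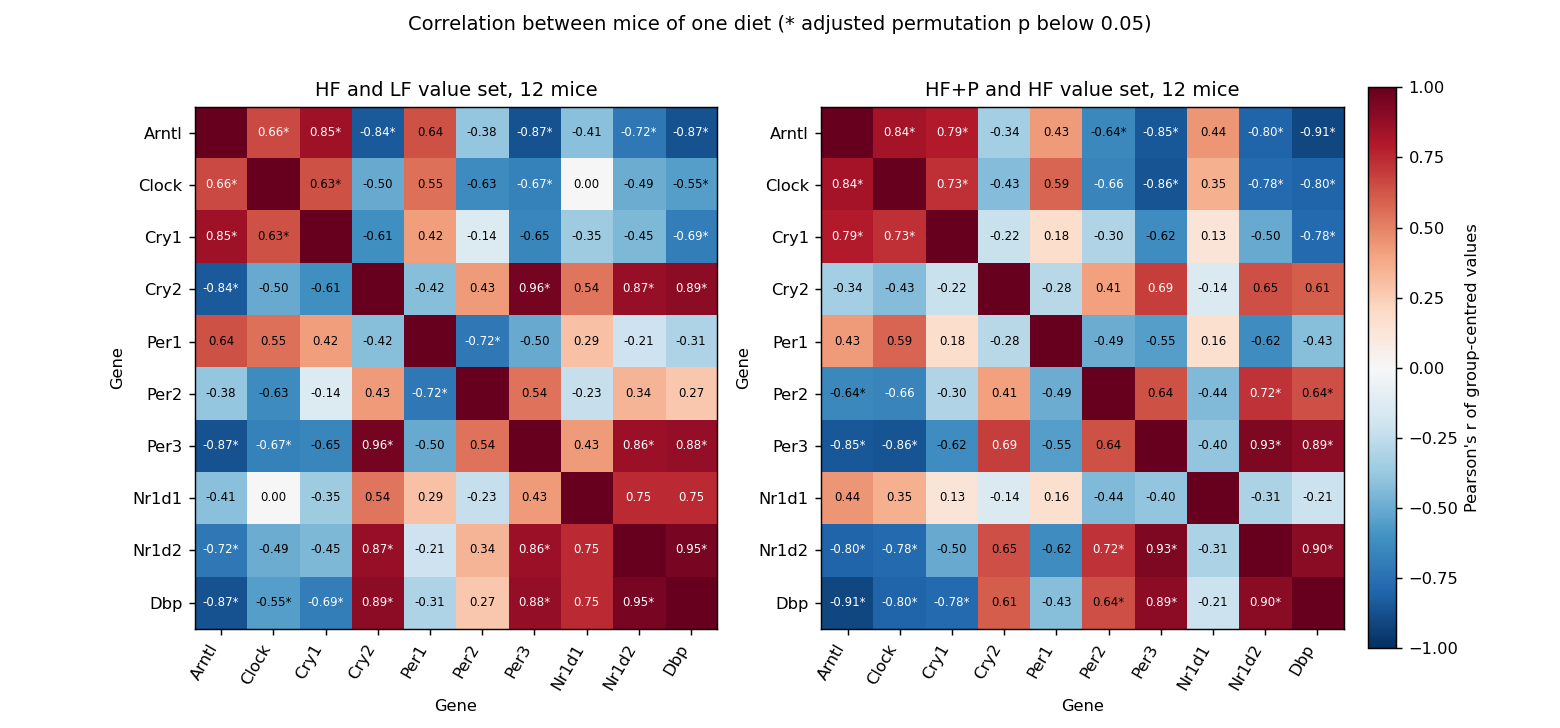
Pearson's r (colour and number) between the group-centred values of each pair of clock genes over 12 mice, HF and LF values on the left and HF+P and HF values on the right, with an asterisk where the adjusted permutation p is below 0.05. Arntl, Clock and Cry1 form a red block that is blue against Per3, Nr1d2 and Dbp in both panels.

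Set against all 18192 other genes by r over the same 12 mice, 4 of the 9 other clock genes were among the 25 most similar or most opposed to Dbp in the set of HF and LF. Nr1d2 was the 2nd most similar gene in the set of HF and LF and the 6th in the set of HF+P and HF, Per3 the 25th and the 10th, and Cry2 the 17th and the 596th, while Arntl was the 20th and the 11th from the bottom. The others were farther in: Cry1 was the 375th and the 114th and Clock the 1075th and the 75th from the bottom, Per1 the 3773rd and the 1740th from the bottom, Per2 the 4281st and the 438th from the top, and Nr1d1 the 226th and the 13581st from the top. The absolute r with Dbp had a median of 0.258 and 0.237 over all genes. In the Dbp probe set used, 1438211_s_at, LF mouse 1 and HF+P mouse 2 lay far below their groups, and no rank was computed without them. The Per2 ranks are those of 1417603_at. The 5 genes most like Dbp in the set of HF and LF were 2900052L18Rik (r = 0.96), Nr1d2, Zfp39 (0.94), Neu1 (0.94) and Cic (0.94), and the 5 most opposed were Ccnt1 (-0.94), Cdkn1a (-0.93), Itsn1 (-0.93), Pxmp4 (-0.91) and Rbm12b1 (-0.91). In the set of HF+P and HF, r with Dbp was -0.92 for Pxmp4, -0.84 for Rbm12b1 and -0.68 for Cdkn1a, but 0.30 for 2900052L18Rik, 0.18 for Cic and -0.10 for Ccnt1. For Arntl the most similar were Tra2b (0.92), Tsc22d3 (0.92), Safb (0.92), Sf3a2 (0.92) and Jdp2 (0.92), and the most opposed Stard4 (-0.95), Nat2 (-0.94), Mixl1 (-0.93), Gpr146 (-0.93) and Cic (-0.91). Of these, Stard4 had -0.75 and Gpr146 -0.67 with Arntl in the set of HF+P and HF, whereas Tsc22d3 had 0.39, Jdp2 0.01 and Mixl1 0.07. Tsc22d3 and Cdkn1a are known targets of glucocorticoid signalling.

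The rest of the clock machinery showed no call either with the values as deposited. Of the other transcription factors of the clock, 11 genes with 28 probe sets were measured and 0 passed in HF against LF, with 15 probe sets higher (7 with centred columns). Nfil3, which competes with Dbp for D-boxes, lay at -1.28 (adjusted p = 0.319), and Tef, a close relative of Dbp, at 1.19 (adjusted p = 0.360). Of the kinases, ubiquitin ligases and co-regulators, 13 genes with 51 probe sets were measured and 0 passed, with 19 higher (3 with centred columns). Among them Fbxw11, a ubiquitin ligase subunit, lay at -1.66 (adjusted p = 0.200; 1.19 with quantile normalisation) and Csnk1d, a kinase of the period proteins, at -1.53 (adjusted p = 0.224). With centred columns 22 of the 28 and 47 of the 51 passed, 20 and 47 of them lower, and with quantile normalisation 3 and 12. Over all 45037 probe sets, 42369 passed with centred columns, 42047 of them lower, and 6734 with quantile normalisation. As deposited, 22898 of the 45037 lay higher in HF, and 1291 did with centred columns. Between HF+P and HF both lists had 0 calls, with 8 of 28 and 27 of 51 probe sets higher (17 and 45 with centred columns). Of all 45037 probe sets, 22222 were higher (38819 with centred columns). Arntl2, a relative of Arntl, had -2.28 (adjusted p = 0.462) and Rorb -1.49 (adjusted p = 0.638), and both were near 0 with centred columns (-0.02 and 0.08). Btrc had 1.36 (adjusted p = 0.661) and Csnk2a1 1.05 (adjusted p = 0.773).

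Among genes of the liver that the clock is known to drive, 2 differed between HF and LF. Of 10 such genes with 19 probe sets, 6 probe sets passed, 3 higher and 3 lower, beside 0.269% of all probe sets higher and 0.402% lower. Nampt, the rate-limiting enzyme of NAD salvage, rose in all 3 of its probe sets, with standardized differences of 2.93, 3.53 and 2.90 (adjusted p = 0.0346, 0.0137 and 0.0369). Nampt 1417190_at had values of 9.2766, 9.2772 and 9.2776 (lowest, median, highest) in HF livers, against 9.2755, 9.2761 and 9.2765 in LF livers, and the groups did not overlap. Insig2, which holds back the activation of cholesterol synthesis, fell in all 3, with -3.003, -3.08 and -2.68 (adjusted p = 0.0303, 0.0272 and 0.0483). With quantile normalisation the Nampt values were 0.90, 1.63 and 2.13, in the same order. Of the 19 probe sets, 5 then passed, 2 of them higher, beside 6734 of all 45037. These genes respond to fasting and feeding as well as to the clock. The count was small when a mouse was left out: without any 1 of 10 of the 12 mice (all but LF mouse 4 and HF mouse 1) it was 1 to 3. Between HF+P and HF 0 of the 19 passed. Elovl3, a fatty acid elongase, lay at 1.499 (adjusted p = 0.626) and Nr1i3 at -1.36 (adjusted p = 0.659).

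Signals that can act on the liver clock were not measured, only lists of genes that respond to such signals. Of 18 glucocorticoid and fasting genes with 39 probe sets, 2 passed in HF against LF and 35 of 39 lay lower. Of all 45037 probe sets, 0.671% passed and 22898 lay higher. Probe sets of 1 gene share their mice and are not separate evidence. G6pc, the enzyme that releases glucose, fell by 3.10 pooled SDs (adjusted p = 0.0261). Pck1 1455209_at passed at 2.84 (adjusted p = 0.0399), but its other probe sets lay at -1.03 and -1.28, and with centred columns it was at -0.11. The count was 0 or 1 without any 1 of 9 of the 12 mice (all but LF mice 2 and 4 and HF mouse 1). Between HF+P and HF 0 of 39 passed and 33 lay higher, beside 22222 of all 45037 probe sets. There G6pc lay at 1.45 (adjusted p = 0.632) and Cdkn1a at 1.38 (adjusted p = 0.654). Temperature-responsive genes (8 genes, 20 probe sets) and immediate early genes (10 genes, 12 probe sets) had 0 calls in either comparison. In HF against LF 4 of the 20 and 3 of the 12 probe sets lay higher, and in HF+P against HF 17 and 10 did. In HF against LF Cirbp, a cold-induced RNA-binding protein, lay at -1.76 (adjusted p = 0.161), Hspa1a at -0.96, Jun at -0.91 and Egr1 at 0.90. With propagules, in HF+P against HF, Hspb1 lay at 1.02, Cirbp at 0.86, Ier3 at 0.50 and Atf3 at -0.37, and Ier3 and Atf3 changed sign under another scaling.

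The tissue matched its label. Hepatocyte markers, 6 of 8 measured, were all above the median of all probe sets, at a median percentile of 99.94, whereas 0 of 2 fat cell, 1 of 4 bile duct and 2 of 4 pancreatic acinar markers were. Of the markers of other cells, 1 of 14 stellate cell probe sets passed in HF against LF (Lrat 1421345_at, 3.01, adjusted p = 0.0300), beside 0.671% of all probe sets. For the Kupffer cell and macrophage, lymphocyte and NK cell, sinusoidal endothelial, bile duct, red blood cell, pancreatic acinar and fat cell lists 0 passed. Without any 1 of 9 mice (all but LF mouse 3 and HF mice 5 and 8) the stellate cell count was 0 or 2. Still, 9 of 11 Kupffer cell and macrophage probe sets and 11 of 12 lymphocyte and NK cell probe sets were higher in HF than in LF. With centred columns 9 and 1 were higher, and with quantile normalisation 6 and 4. Of all 45037 probe sets, 22898 were higher in HF, 1291 with centred columns and 5878 with quantile normalisation. The summed level of the 8 Kupffer cell and macrophage markers ran from 69.8542 to 69.9337 in HF livers and from 69.8548 to 69.9755 in LF livers, and that of the 7 lymphocyte and NK cell markers from 48.7343 to 48.7349 in HF livers and from 48.7341 to 48.7344 in LF livers. In HF+P against HF 0 markers of any list passed, and 1 of 11 Kupffer cell and 3 of 12 lymphocyte probe sets were higher (1 and 8 with centred columns). Of all 45037 probe sets, 22222 were higher there (38819 with centred columns). No marker could be listed at 0, since the deposited values ran from 5.36 to 15. The part of other cells in the clock values was not tested.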

How the data were processed

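RNA of 18 mouse livers was measured on 1 Affymetrix array each. Trizol was used for extraction and the amplified RNA carried biotin, per the labels' protocols. The submitters' processing notes name R 2.7.2. How probes were summarised and normalised, and the base of the logarithm, no source used here states. The deposited values were handled as log2 intensities, since that is their range; the 24 columns hold the HF arrays in 2 versions. The platform annotation gave 1 symbol for 34958 probe sets, several for 932, and did not list 9211; of the first, 34754 were found in RefSeq's gene table (GRCm38.p6), with 0 symbols altered.

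Each comparison was fitted to its own 12 columns in limma 3.58.1 (R 4.3.3, lmFit and eBayes, no covariate, two-sided), after 64 control probe sets had been left out, with Benjamini-Hochberg adjustment and a threshold of 0.05. The fit was tested on simulated data. The exact permutation test of the difference of means used all 924 assignments, unadjusted, with 0.00216 as its smallest p. Correlations were tested with 100000 permutations within groups and adjusted over 45 pairs per set. The labels name separate mice. Most mouse numbers recur between diets, with no stated pairing, but HF+P has a mouse 7 where LF and HF have a mouse 5. The genes and all lists were chosen with earlier results of these data known. Every probe set of the 10 genes is named; of each other list, genes with a call, or otherwise the 2 with the largest absolute standardized difference (1 probe set per gene, by its mean). Alternatives were 2 scalings, a filter on low means, 1 probe set per gene, trend and robust settings, array weights, mouse number as a block, each mouse left out and a threshold of 0.1.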

Additional observations from a re-analysis of the deposited data

Results flagged for a closer look

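In 8 of 92 groups of 6 values (23 probe sets in 4 groups), 1 mouse lay apart from the others by the ratio of its gap to the nearest mouse over the whole range of the group (Dixon's test, 95% critical value for 6 mice). By chance about 1 in 20 groups would do so. LF mouse 1 accounted for 6 of them, as the lowest of its group: the ratio was 0.883 for Nr1d1 1426464_at, 0.820 for Nr1d2 1416958_at, 0.730 and 0.687 for Dbp 1438211_s_at and 1418174_at, and 0.698 and 0.680 for Per3 1458176_at and 1441445_at. HF+P mouse 2 was the lowest of its group for both Dbp probe sets, with ratios of 0.679 (1438211_s_at) and 0.657 (1418174_at). The probe sets of 1 gene share their mice and are not separate evidence.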

How the results depend on the processing

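No clock probe set was called in HF+P against HF under any alternative run. In HF against LF, 11 were called with centred columns, 4 with quantile normalisation and 2 with mouse number as a replicate block, and 0 under the other alternatives, each mouse left out included; the count over all probe sets was 42369, 6734 and 246 under these 3, 568 among the probe sets above the median of the means, 861 at a threshold of 0.1 and 131 to 325 with 1 mouse left out. In HF+P against HF it was 2 with centred columns and 0 to 2 with 1 mouse left out. The cause was not tested, except that a centred column moves every probe set by the same amount.

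Deviations of same-numbered mice correlated only weakly, at -0.13 to 0.0976 (HF and LF) and 0.0338 to 0.209 (HF+P and HF). Even so, 4 of 6 and 3 of 5 numbers matched their own best. Whether same-numbered mice share a batch was not tested. Under the block, with sizes in residual SDs of that fit, Clock 1439314_at stood at -5.21 (adjusted p = 0.0321) and Per3 1421087_at at 4.06 (adjusted p = 0.0460), and 120 of the 302 calls were kept.

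Direction in HF against LF reversed for Per2 1417603_at (-0.842 centred, -1.65 quantile), Per3 1421086_at (-1.46, -1.33) and Per2 1457350_at (-0.950, -0.753), for Per3 1460662_at (-0.483 quantile) and for Arntl 1457740_at (0.0261 with array weights). In HF+P against HF it reversed for Arntl 1457740_at (0.173 centred), Per3 1421086_at (0.336 quantile) and Cry2 1426383_at (0.0705 quantile); for Nr1d2 1416958_at quantile normalisation made all 12 values equal and gave none. With 1 mouse left out, Arntl 1457740_at ran from -0.515 to 0.125, Per3 1441445_at from -0.0451 to 0.647 and Per3 1442243_at from -0.106 to 0.563 in HF against LF, and Per3 1442243_at from -0.565 to 0.0388 in HF+P against HF.

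Called correlations numbered 18 and 16 with centred columns, and 16 (8 of the 17 among them) and 0 without the 2 farthest mice, in the sets of HF and LF and of HF+P and HF. Calls in the lists of clock-controlled liver genes and of glucocorticoid and fasting genes numbered 9 and 26 with centred columns, 5 and 6 with quantile normalisation, and 1 to 6 and 0 to 3 with 1 mouse left out. Over all 45037 probe sets these 2 scalings gave 42369 and 6734 calls.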

Other observations

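The same 6 HF arrays appear in both sets of values, which gives a direct look at how much the processing sets these numbers. Over the 6 mice the 2 versions of a clock probe set correlated at 0.945 or more for 22 of the 23, and at 0.645 for Arntl 1457740_at, so the order of the mice was largely kept. The spread was not: the SD in the set of HF+P and HF over that in the set of HF and LF ran from 0.182 for Nr1d2 1416958_at to 7.48 for Arntl 1457740_at.

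Endothelial receptor genes lay at opposite ends in HF against LF without passing: Tek at -2.53 (adjusted p = 0.0576) and Kdr at 1.97 (adjusted p = 0.128), the second of which was at -2.49 with centred columns.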
